A study of Mus musculus with 6 samples.

Results

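The genes of MHC class II presentation were taken as the chains H2-Aa, H2-Ab1 and H2-Eb1, the accessory chains H2-DMa, H2-DMb1, H2-DMb2 and H2-Ob, the invariant chain Cd74, the coactivator Ciita and the protease Ctss. Every probe set whose only gene symbol in the platform annotation is 1 of these 10 names was kept, which gave 19 of 45037 probe sets and 9 of 18193 named genes. H2-DMb1 had no probe set of its own. The members were set by name, with earlier results of these data known. Colon RNA was measured on Affymetrix Mouse Genome 430 2.0 arrays, 3 of control and 3 of HDAC1/2 deficient mice aged 4 months by the paper, each labelled with a mouse of its own. Control mice are labelled wild type. Deficient mice are labelled HDAC1/2 KO and carried floxed Hdac1 and Hdac2 alleles that villin-Cre, driven by a promoter of the intestinal epithelium, recombines in epithelial cells. Both groups ate a normal diet and received no treatment. The deletion reaches the epithelium alone, and by the paper some crypts still held HDAC2 protein, whereas the labels name colon epithelium in the sample source and total colon RNA in the extraction. For the strain and the H2 haplotype of the mice no value was given in the sources used here.

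MHC class II molecules are dimers of an alpha and a beta chain that show peptides of endocytosed proteins to CD4 T cells. The invariant chain Cd74 fills their groove in the endoplasmic reticulum and carries them to endosomes, where proteases such as cathepsin S (Ctss) cut it down to a short fragment. The dimer H2-DM (H2-DMa with H2-DMb1 or H2-DMb2) then exchanges this fragment for peptide, and H2-DO (H2-Oa with H2-Ob) restrains H2-DM. Transcription of the chains, Cd74 and H2-DM depends on Ciita, which binds no DNA itself but joins RFX, CREB and NF-Y proteins on the X and Y boxes of class II promoters. B cells, dendritic cells and macrophages make class II at all times, and other cells, including intestinal epithelium, make it in response to interferon gamma.

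Promoter sequences are shown because the X and Y boxes are where Ciita acts. RefSeq windows of 300 bases around the gene start (GRCm38.p6) were at hand for 7 of the 10 members and for H2-Oa and H2-Eb2. The motifs were ACNGATG, within the X box, and ATTGG, the core of the Y box that NF-Y binds, searched on both strands. Their letters and spacing were chosen with class II promoters in view. Each line gives 70 bases, 5′ to 3′ on the gene's strand, with ACNGATG and ATTGG in capitals where the former precedes the latter by 20 to 40 bases, and with ATTGG alone in capitals elsewhere.
H2-Eb1, chr17:34305753-34305822, plus strand: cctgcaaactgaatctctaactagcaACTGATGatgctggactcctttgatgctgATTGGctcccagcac
H2-DMb1, chr17:34153075-34153144, plus strand: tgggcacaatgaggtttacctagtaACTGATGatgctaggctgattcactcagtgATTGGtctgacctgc
H2-DMb2, chr17:34145104-34145173, plus strand: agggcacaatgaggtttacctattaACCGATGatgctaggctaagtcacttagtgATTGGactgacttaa
H2-Aa, chr17:34287857-34287926, minus strand: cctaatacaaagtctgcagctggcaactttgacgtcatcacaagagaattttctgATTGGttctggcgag
H2-Ob, chr17:34238793-34238862, plus strand: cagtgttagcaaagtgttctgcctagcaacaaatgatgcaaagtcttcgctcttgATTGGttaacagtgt
H2-Eb2, a class II beta chain gene that is no member, chr17:34325520-34325589, plus strand: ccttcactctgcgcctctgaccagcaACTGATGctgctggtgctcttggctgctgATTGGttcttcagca

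The ordered pair of motifs was found in the windows of H2-Eb1, H2-DMb1, H2-DMb2 and H2-Eb2, with 29, 30, 30 and 29 bases between the motif starts. It stood in 0.161% of 32851 RefSeq promoter windows of the same length. ACNGATG alone was found in 9.85% and ATTGG alone in 37.4% of them. The longer run CTGATTGG, which contains ATTGG, was found in 4.10% of the windows and in those of H2-Aa, H2-Eb1, H2-Oa and H2-Eb2. The ATTGG shown lies 59 bases before the gene start in H2-Eb1, 48 in H2-Aa and 57 in H2-Ob. The ordered pair was not found in the windows of H2-Aa, H2-Ob, H2-Oa, Ctss or either window of H2-DMa. A match to these letters is a description and not a site shown to be used, and its absence says only that these letters do not stand in the window.

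RNA of class II genes was higher in HDAC1/2 deficient colon, and that of Ctss was lower. Of the 19 probe sets, 18 rose and 1 fell (limma, adjusted p under 0.05), and 16 rose by over 2-fold. Across all probe sets, 18.8% rose, 21.0% fell and 1.56% rose by over 2-fold. No probe set of the members had overlapping groups, with 18 higher and 1 lower on every deficient array, where 23.8% of all probe sets stood above and 26.2% below on every deficient array. The median log2 fold change was 1.76 over the 19 probe sets and -0.0068 over all probe sets. Taking each gene by its probe set of highest mean signal, 8 of the 9 genes rose and 1 fell, against 21.9% and 28.4% of all 18193 genes. By the same measure 7 genes rose by over 2-fold, as 2.25% of all genes did. In the RNA of whole tissue, more cells of a type and more RNA per cell cannot be told apart.

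**Figure D1:**
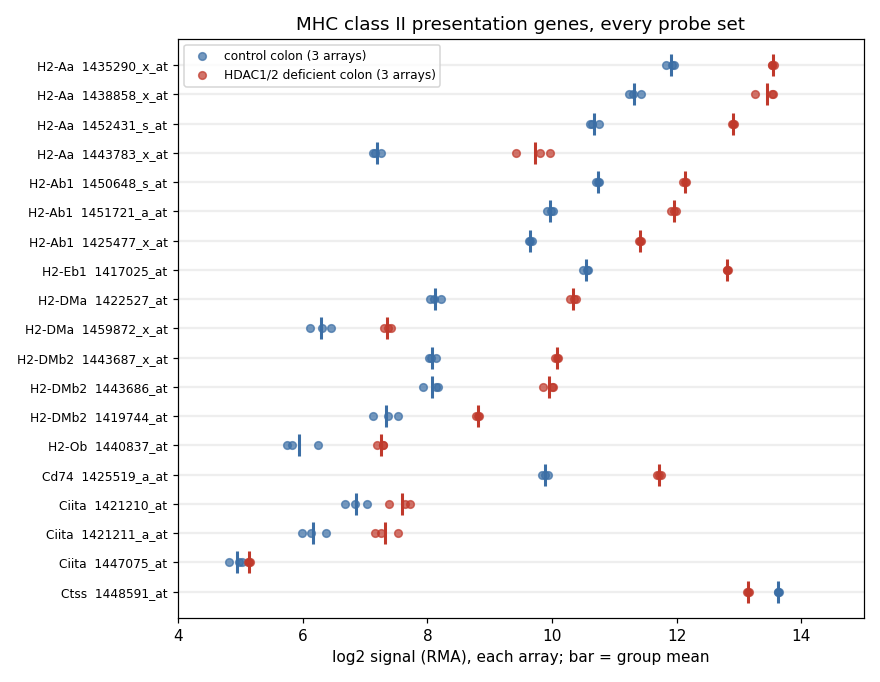
RMA log2 signal on each of 6 arrays (horizontal axis) for the 19 probe sets of the class II genes (rows), with control arrays in blue, HDAC1/2 deficient arrays in red and a vertical bar at each group mean. The deficient arrays stand above the control arrays in every row but that of Ctss, and the groups lie closest together for the Ciita probe set 1447075_at.

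The alpha and beta chains that present peptide were between 1.40 and 2.54 higher on the log2 scale in deficient colon. H2-Eb1, the beta chain of I-E, had log2 signals of 10.57, 10.56 and 10.50 on the control arrays and 12.81, 12.82 and 12.81 on the deficient arrays. The 3 arrays of each group nearly coincided and the groups were far apart. This was a 4.82-fold rise (log2 fold change 2.27, standard error (SE) 0.040, limma adjusted p = 3.88e-08).

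H2-Aa, the alpha chain of I-A, was measured by 4 probe sets. The one with the highest mean signal (1435290_x_at) gave 11.97, 11.93 and 11.83 in control and 13.54, 13.57 and 13.53 in deficient colon. These values were 3.12-fold apart (log2 fold change 1.64, SE 0.048, limma adjusted p = 4.13e-07). On 1443783_x_at the control arrays were at 7.26, 7.13 and 7.16 and the deficient arrays at 9.80, 9.42 and 9.97. Here the deficient arrays differed more among themselves, and the lowest of them was still well above the control arrays. The change was the largest of all members on this array design (log2 fold change 2.54, SE 0.13, limma adjusted p = 4.88e-06). The probe sets 1438858_x_at and 1452431_s_at rose by 2.13 and 2.24 on the log2 scale.

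H2-Ab1, the beta chain that pairs with H2-Aa, was measured by 3 probe sets. On 1450648_s_at the signals were 10.74, 10.71 and 10.75 in control and 12.11, 12.14 and 12.14 in deficient colon. The groups did not overlap, and the rise was 2.63-fold (log2 fold change 1.40, SE 0.040, limma adjusted p = 3.43e-07). The rise was 1.98 on 1451721_a_at and 1.76 on 1425477_x_at on the log2 scale.

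The invariant chain gene Cd74 stood at 9.83, 9.89 and 9.94 on the control arrays and at 11.71, 11.74 and 11.69 on the deficient arrays. All deficient arrays were higher, by 3.54-fold on average (log2 fold change 1.83, SE 0.045, limma adjusted p = 1.80e-07). Ctss, which encodes the protease that trims the invariant chain in professional antigen-presenting cells, went the other way. Its signals were 13.63, 13.63 and 13.64 in control and 13.13, 13.16 and 13.15 in deficient colon. Every deficient array was below every control array, and Ctss fell by 0.49 on the log2 scale, to 0.713 of the control level (SE 0.038, limma adjusted p = 3.96e-05). Its mean signal was above that of 99.1% of all probe sets.

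The genes of the peptide editor H2-DM also rose. H2-DMa, its alpha chain, had signals of 8.21, 8.03 and 8.10 in control and 10.38, 10.35 and 10.29 in deficient colon on 1422527_at. The groups did not overlap and were 4.67-fold apart (log2 fold change 2.22, SE 0.058, limma adjusted p = 2.31e-07). Its other probe set, 1459872_x_at, gave 6.45, 6.31 and 6.11 against 7.41, 7.36 and 7.30, a smaller rise (log2 fold change 1.07, SE 0.084, limma adjusted p = 4.27e-05).

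H2-DMb2, a beta chain of H2-DM, was at 8.03, 8.14 and 8.06 in control and at 10.08, 10.04 and 10.10 in deficient colon on 1443687_x_at. The deficient arrays were all higher (log2 fold change 2.00, SE 0.046, limma adjusted p = 1.30e-07). The log2 fold changes of its other probe sets were 1.87 on 1443686_at and 1.47 on 1419744_at. H2-Ob, the beta chain of the H2-DM inhibitor H2-DO, was at 6.25, 5.82 and 5.75 in control and 7.28, 7.20 and 7.29 in deficient colon. One control array stood apart from the other two, but below all deficient arrays (log2 fold change 1.32, SE 0.12, limma adjusted p = 9.46e-05).

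Ciita, the coactivator on which most of these genes depend, rose on all 3 of its probe sets, by 0.19 to 1.15 on the log2 scale. On 1421210_at its signals were 6.84, 7.02 and 6.68 in control and 7.39, 7.64 and 7.73 in deficient colon, a 1.67-fold rise (log2 fold change 0.74, SE 0.11, limma adjusted p = 0.0012). On 1421211_a_at they were 6.13, 5.99 and 6.37 against 7.16, 7.52 and 7.26, a 2.22-fold rise (log2 fold change 1.15, SE 0.12, limma adjusted p = 1.68e-04). Both probe sets separated the groups, with SDs between 0.17 and 0.19. The dim 1447075_at had 4.97, 5.03 and 4.82 against 5.14, 5.15 and 5.12 (log2 fold change 0.19, SE 0.060, limma adjusted p = 0.034). Leaving out control array 1, control array 3 or any of the 3 deficient arrays took its adjusted p to between 0.060 and 0.086. Whether the change of Ciita differs in size from that of the other members was not tested.

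**Figure D2:**
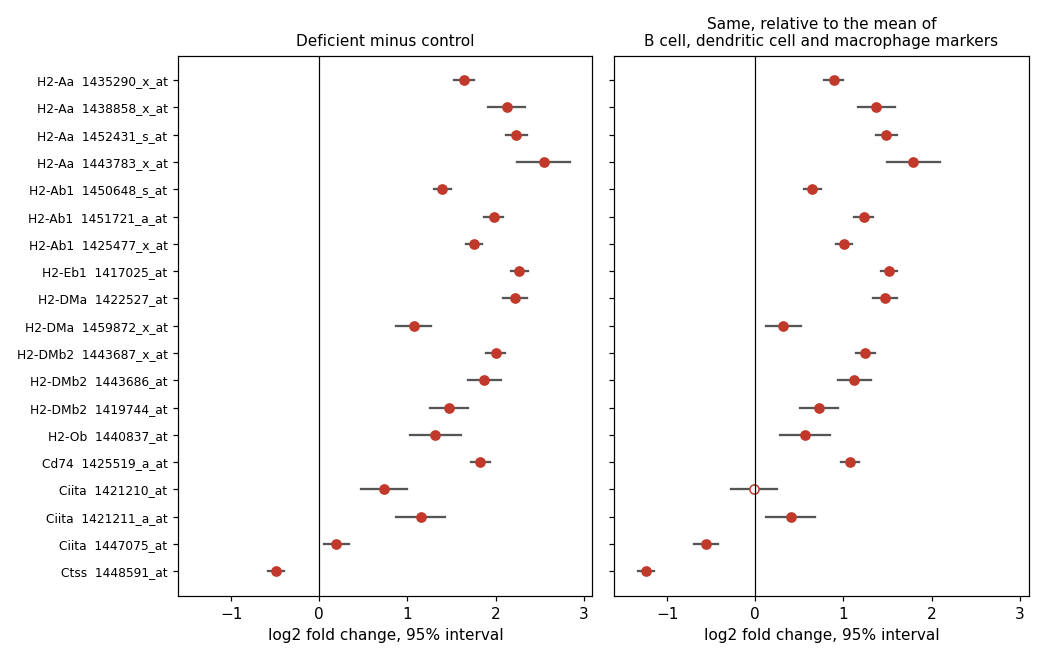
Log2 fold change (deficient minus control, horizontal axis, 95% intervals of limma) for each probe set of the class II genes, as measured on the left and relative to the mean of 28 markers of antigen-presenting cells on the right. Filled points passed the adjusted p of 0.05. On the left all but Ctss lie above 0, from 0.19 to 2.54, and on the right 16 of 19 do so past the test.

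Probe sets of 1 gene differed in the size of the change. Each other probe set of a gene was compared with the gene's probe set of highest mean signal by a limma test on the difference of their log2 values within each array. Of the 10 differences among the members 8 passed, and 33.9% of the 16752 differences over all genes did so. The H2-Aa probe sets changed by 0.49, 0.60 and 0.91 more than 1435290_x_at, and those of H2-Ab1 by 0.58 and 0.36 more than 1450648_s_at. The H2-DMa probe set 1459872_x_at changed less than 1422527_at (difference -1.15, limma adjusted p = 3.40e-05). The differences that did not pass were -0.13 for 1443686_at of H2-DMb2 (95% interval -0.35 to 0.093) and 0.42 for 1421211_a_at of Ciita (95% interval 0.028 to 0.80, limma adjusted p = 0.093). The direction was the same on all probe sets of a gene.

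Of the other class II chains, H2-Ea and H2-Oa rose and H2-Eb2 did not pass the test. H2-Ea, the alpha chain of I-E, which RefSeq lists as a pseudogene in its reference strain, was at 10.43, 10.49 and 10.42 in control and 12.74, 12.85 and 12.72 in deficient colon on 1422891_at (log2 fold change 2.33, limma adjusted p = 1.04e-07). I-E pairs it with H2-Eb1, and the groups did not overlap on this probe set. On 1422892_s_at the log2 fold change of H2-Ea was 3.27, and on the dim 1426202_at it was 0.093 (limma adjusted p = 0.40). H2-Oa, the partner of H2-Ob, rose from 7.18 ± 0.046 to 7.98 ± 0.063 (SD, n = 3 each; log2 fold change 0.80, limma adjusted p = 1.35e-05). H2-Eb2 was at 7.55, 7.72 and 7.59 in control and 7.77, 7.70 and 7.80 in deficient colon, with overlapping groups (log2 fold change 0.14, 95% interval 0.0055 to 0.27, limma adjusted p = 0.095). Without control array 2, H2-Eb2 passed (log2 fold change 0.19, limma adjusted p = 0.028).

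The H2 genes among the members lie together on mouse chromosome 17, with Psmb8, Psmb9, Tap1 and Tap2 of class I presentation among them. In gene order, 15 listed genes stand from H2-Oa to H2-Ea, and of the 14 measured 12 rose and 1 fell. Over all genes 21.9% rose and 28.4% fell. Psmb9 and Psmb8, subunits of the immunoproteasome, rose by 1.99 and 1.96 on the log2 scale, and Tap1, of the peptide transporter, by 0.92. Brd2, a reader of acetylated histones whose gene stands between H2-Oa and H2-DMa, fell from 10.72 ± 0.014 to 10.18 ± 0.044 (SD, n = 3 each; log2 fold change -0.55, limma adjusted p = 3.85e-05). Of the 18 listed genes to either side, 4 rose and 6 fell, which is near those shares. Wdr46, at the edge of the listed stretch, rose by 0.71, and B3galt4 beside it fell by 0.35 on the log2 scale. Ring1, Rxrb, Agpat1, Pbx2 and Rnf5 fell by 0.16 to 0.21. Pbx2 and Rnf5 lost their calls without control array 1 or deficient array 3 (adjusted p from 0.055 to 0.079). The listed neighbours as a whole had 8 of 23 genes higher, 7 lower and a median log2 fold change of 0.0076, against -0.022 over all genes.

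**Figure D3:**
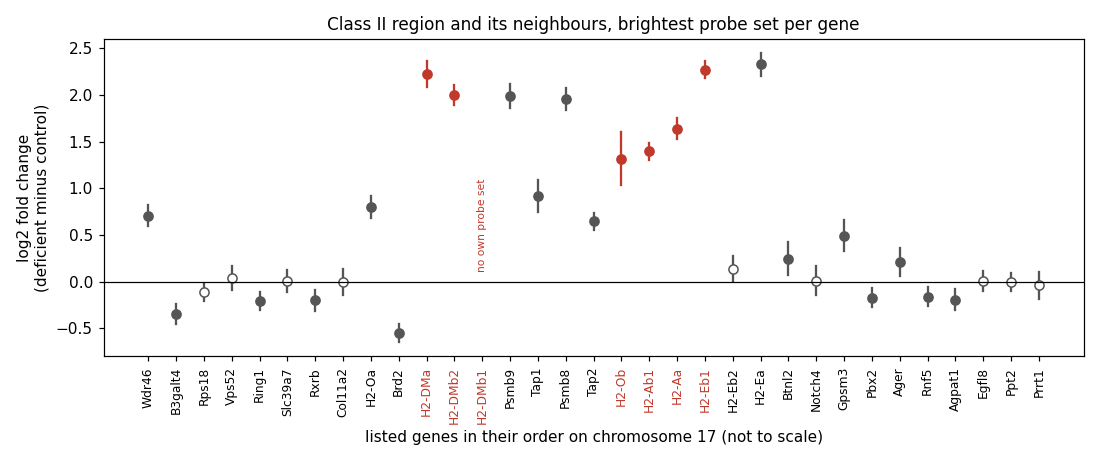
Log2 fold change (deficient minus control, vertical axis, 95% intervals of limma) of 33 listed genes of the class II region in their order on chromosome 17, with members in red and other genes in grey. Filled points passed the adjusted p of 0.05. The high values lie between H2-Oa and H2-Ea, where Brd2 is the one gene that fell, at -0.55.

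Most genes for the transcription machinery of class II promoters fell. Of 10 listed genes 2 rose and 7 fell, against 21.9% higher and 28.4% lower over all genes, with a median log2 fold change of -0.22. Rfxank, a subunit of the RFX complex, fell from 8.94 ± 0.047 to 8.09 ± 0.10 (SD, n = 3 each; log2 fold change -0.85, limma adjusted p = 2.42e-05). Of the 3 probe sets of Rfxank 2 fell, and the smallest change was -0.066. Its partner Rfxap fell by 0.31, whereas Rfx5, the subunit that binds the X box, rose by 0.20 on the log2 scale. Of NF-Y, Nfya fell by 0.19 and Nfyc by 0.12, and Nfyb rose by 0.14. The acetyltransferases Kat2b, Crebbp and Ep300, which Ciita recruits, fell by 0.68, 0.42 and 0.25. Without probe sets of shared sequence Kat2b was at -0.21 (limma adjusted p = 0.078). Ep300 missed the threshold under the methods' t-test after adjustment (adjusted p = 0.059). It kept its call at unadjusted p under 0.05, the rule that the paper used. The probe sets behind Nfyb and Nfyc passed narrowly (limma adjusted p = 0.034 and 0.046). Nfyc lost its call without any 1 array (adjusted p from 0.069 to 0.14). Nfyb did so without control array 1 or 2 or deficient array 1 or 3 (0.081 to 0.12), which left 1 gene of the list higher.

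Of 10 measured genes of the interferon gamma axis, 4 rose and 3 fell, with a median log2 fold change of 0.068, against 21.9% higher and 28.4% lower over all genes. After adjustment of the methods' t-test Irf1 and Ifngr2 lost their calls (adjusted p = 0.070 and 0.055), which they kept at unadjusted p. Nlrc5, a relative of Ciita that acts on class I genes, rose from 5.65 ± 0.081 to 7.63 ± 0.049 (SD, n = 3 each; log2 fold change 1.98, limma adjusted p = 3.11e-07). The cytokine Ifng had signals of 4.42 ± 0.23 and 5.24 ± 0.23 (SD, n = 3 each) and rose by 0.82 (limma adjusted p = 0.0025), and Socs1, a feedback inhibitor of its pathway, rose by 0.57. Its receptor chains Ifngr1 and Ifngr2 fell by 0.44 and 0.38, and the interferon regulatory factor Irf2 fell by 0.87 on the log2 scale. Factors that act on Ciita in antigen-presenting cells rose in 4 of 6 cases by the probe set of highest mean signal, against 21.9% of all genes. Those that rose were Prdm1, the repressor of Ciita in plasma cells, at 1.12, Irf4 at 0.92, Irf8 at 0.69 and Spi1 (PU.1) at 0.43 on the log2 scale. Pax5 (0.11) and Bcl6 (0.053) did not pass (limma adjusted p = 0.098 and 0.37). On its other probe set Pax5 fell past the test, by 0.25. The other probe set of Bcl6 was at -0.18 and did not pass.

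Among 12 genes that process antigen 4 rose and 3 fell, with a median log2 fold change of 0.028, against the same shares over all genes. Cathepsin C (Ctsc) rose by 0.83, legumain (Lgmn) by 0.53 and cathepsin D (Ctsd) by 0.39. Sppl2a, the membrane protease that clears the last fragment of the invariant chain, fell by 0.42, cathepsin H (Ctsh) by 0.38 and cathepsin F (Ctsf) by 0.26 on the log2 scale. Of 8 traffic and turnover genes 4 rose and 2 fell, against 21.9% and 28.4% of all genes. The ubiquitin ligase Marchf9 rose by 1.32, whereas Marchf8 fell by 0.62. Marchf1, the ligase that removes class II from the surface of resting antigen-presenting cells, rose by 0.28 on its probe set of highest mean signal (limma adjusted p = 0.041) and by 1.12 on another. Without deficient array 1 or 3 its call was lost (adjusted p = 0.090 and 0.088), and so was that of Lamp2 (0.070 and 0.058), which left 2 of the 8 genes higher. Cd83, which opposes Marchf1, fell by 0.44.

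Of 12 costimulation and ligand genes, 7 rose and 1 fell, against 21.9% and 28.4% of all genes, with a median log2 fold change of 0.24. The costimulator Cd86 rose from 6.64 ± 0.066 to 7.50 ± 0.13 (SD, n = 3 each; log2 fold change 0.86, limma adjusted p = 5.72e-05). Cd74 also serves as receptor of the cytokine Mif, together with Cd44 and Cxcr4, and Mif rose by 0.66, Cd44 by 0.61 and Cxcr4 by 1.23. Of the 3 probe sets of Mif only 1 rose past the test, and the lowest was at -0.12. For Cd44 3 of 4 did so, and the lowest was at 0.0095. The costimulator Icosl fell by 0.16 (limma adjusted p = 0.022). This call was lost without control array 3, deficient array 1 or deficient array 3 (adjusted p from 0.063 to 0.066). For class I, which presents cytosolic peptide, 3 of 7 genes rose and 1 fell, against the same shares over all genes, with a median of 0.071. The light chain B2m rose by 0.56, H2-Q10 by 1.29 and H2-D1 by 0.22, and H2-Q2 fell by 2.49 on the log2 scale. The 9 probe sets of H2-D1 gave between 0.22 and 4.77, and class I genes share long stretches of sequence.

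Markers of B cells and macrophages, which carry class II, rose as well, and some of dendritic cells did. Over all genes 21.9% rose. All 9 measured B cell markers rose, with a median log2 fold change of 0.89, and the mean of the list was 7.19 to 7.22 on the control and 8.18 to 8.20 on the deficient arrays. Ms4a1 (CD20) rose by 1.48 and Cd79a, of the B cell receptor, by 0.78, while the largest changes were 1.65 for Cd79b and, next to Ms4a1, 1.45 for Fcrla. Of 10 macrophage markers 9 rose and the lowest log2 fold change was 0.049, with a median of 0.98 and list means of 8.60 to 8.68 and 9.47. Adgre1 (F4/80), Csf1r and Cd68 rose by 0.75, 1.12 and 0.97, and the complement genes C1qa and C1qb by 1.33 and 1.19. Of 9 dendritic cell markers 5 rose and the lowest log2 fold change was 0.038, with a median of 0.28 and list means of 6.61 to 6.70 and 7.06 to 7.10. Itgax rose by 0.91, Zbtb46 by 0.28 and Itgae by 1.30. By the methods' t-test 5 of the list were higher at unadjusted p. After adjustment 3 passed and Zbtb46 did not (adjusted p = 0.10). Flt3 was at 7.25 ± 0.12 and 7.29 ± 0.094 (SD, n = 3 each; limma adjusted p = 0.74). In control colon the measured defining markers of these lists had mean signals from 5.95 to 10.64. The part of these cells in the class II values was not tested.

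Markers of other leukocytes rose too, and epithelial markers moved both ways. Over all genes 21.9% rose and 28.4% fell. All 8 pan-leukocyte markers were higher, with a median log2 fold change of 1.37 (Ptprc 1.34, Laptm5 1.58, Coro1a 1.51, Rac2 1.71), and list means went from between 8.66 and 8.73 to between 9.999 and 10.04. All 6 plasma cell markers (Mzb1 1.81, Jchain 1.24, Xbp1 0.17), 5 of 7 T cell markers (Cd3g 1.62, Cd3d 0.97, Cd3e 0.61) and 3 of 5 markers of type 3 innate lymphoid cells (Ltb 1.10, Il7r 0.72) rose, while Kit of the latter list fell by 0.99. The call of Xbp1 was lost without control array 1 or 2 or deficient array 1 or 3 (adjusted p from 0.062 to 0.091). Of 12 colon epithelium markers 6 rose and 3 fell, with a median of 0.090. Epcam fell by 0.16, Vil1, Car1 and Krt20 rose by 0.35, 0.57 and 0.67 and Cdh1 had a log2 fold change of -0.14 (limma adjusted p = 0.077). Their signals were high in both groups, so that the epithelium named by the labels was present. Acta2 and Myh11 of the stroma list were bright too, with means of 14.23 and 13.13 in control colon. In deficient colon they were at 14.10 and 12.55, so the RNA was not of epithelium alone. Of 10 stroma and endothelium markers 3 rose and 5 fell (Pecam1 -0.28, Cdh5 -0.36, Myh11 -0.58, Pdgfrb 0.74), and Kdr was at 0.061. By the methods' t-test 4 fell at unadjusted p, where Pecam1 lost its call. After adjustment 3 fell, and Pecam1 and Cdh5 missed the threshold (adjusted p = 0.15 and 0.10).

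**Figure D4:**
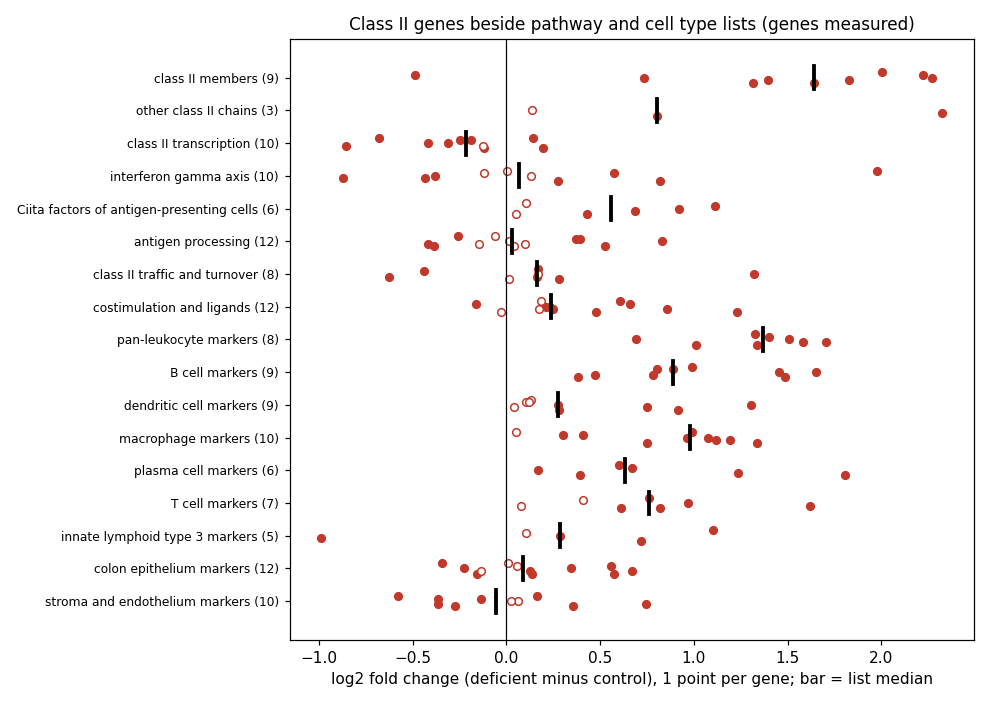
Log2 fold change (deficient minus control, horizontal axis) of the measured genes of each list, 1 point per gene by its probe set of highest mean signal, with a black bar at the list median. Filled points passed limma's adjusted p of 0.05. The class II members have a median of 1.64, above those of the B cell (0.89), macrophage (0.98), dendritic cell (0.28) and pan-leukocyte (1.37) lists.

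Set beside these markers on the same arrays, most class II probe sets had risen further. The mean of 28 markers of B cells, dendritic cells and macrophages went from 7.54 to 8.29, a difference of 0.75, and was subtracted from every probe set on each array. On that scale an unchanged gene falls by 0.75, and 1.93% of all probe sets were higher and 95.8% lower by limma. Of the 19 class II probe sets 16 were higher, 2 lower and 1 did not pass. The relative log2 fold change was 1.52 for H2-Eb1, 1.47 for H2-DMa on 1422527_at, 1.08 for Cd74 and 0.57 for H2-Ob. Ctss (-1.24) and the Ciita probe set 1447075_at (-0.56) were lower. Ciita on 1421210_at did not pass on this scale (-0.014, 95% interval -0.27 to 0.24, limma adjusted p = 0.90).

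The count depended on the markers used. With the 8 pan-leukocyte markers, whose mean rose by 1.32, 11 of the 19 class II probe sets were higher and 4 lower, against 0.719% and 98.8% of all probe sets. H2-Eb1, H2-DMa on 1422527_at and Cd74 were higher by 0.95, 0.90 and 0.51 on that scale. H2-Ab1 on 1450648_s_at (0.077, 95% interval -0.032 to 0.19) and H2-Ob (-0.0024, 95% interval -0.25 to 0.25) did not pass. These values set a gene against an average of markers, and a fold change on probe sets of different signal is not a measure of RNA per cell.

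Other features of the arrays moved with the groups. Hdac1 fell by 1.30 on the log2 scale in deficient colon, and Hdac2 did not pass the test (0.046, limma adjusted p = 0.48). These are RNA values of whole colon, whereas the paper reported depletion of both proteins by Western blot of enriched epithelial cells. Of 6 measured pancreatic acinar genes all rose, with a median log2 fold change of 5.42 (Cela2a 7.40, Cpb1 7.24, Cpa1 5.64) and list means of 6.05 to 6.24 in control and 11.98 to 12.03 in deficient colon. Xist, made from the inactive X chromosome of females, fell by 0.83 and the Y-linked Eif2s3y rose by 4.25, with both RNAs on each deficient array (12.02 ± 0.033 and 8.34 ± 0.14, SD, n = 3). RNA of a male mouse alone or a female mouse alone would carry only one of them at a high level, so the labels' reading of 1 mouse per array is in question for the deficient group, and n counts arrays. The part of pancreatic or sex-linked RNA in the class II values was not tested. Nor was that of the H2 haplotype, for which no value was given in either group. Arrays of the same group correlated at 0.9984 to 0.9988 across probe sets, and arrays of different groups at 0.9824 to 0.9828.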

How the data were processed

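The authors deposited log2 signals, 1 per probe set and array, after background correction and normalization by RMA (robust multi-array average) in Flexarray, as the paper's methods say. RMA is also in the submitters' processing notes. Groups came from the sample labels. After 64 of 45101 probe sets were left out as controls, 45037 entered a limma fit of deficient against control without covariates (limma 3.58.1, R 4.3.3), with Benjamini-Hochberg adjustment over all of them and a threshold of 0.05. Over 2-fold means a log2 fold change above 1. Symbols came from the platform annotation (34945 probe sets with 1 symbol, 932 with several, 9160 with none). For lists, a gene's value is that of its brightest probe set, by the mean of the 6 arrays. Genes without such a probe set were not analysed here.

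The members and lists were chosen with earlier results of these data known. Named were every member probe set, all other class II chains, the 4 largest changes and all falls past the test of each pathway list, Brd2, Hdac1, Hdac2, Xist, Eif2s3y, and of each marker list the defining genes that lead it and the 2 largest changes. Cxcr2, Pax5, Bcl6 and Acta2 were named in addition, to show values beside those of their lists.

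Alternatives were the methods' t-test, adjusted or not, renewed quantile normalization, median centring, a filter at the 40th percentile of signal, array weights, trended and robust eBayes, a replicate block, the mean over probe sets, no shared-sequence probe sets, other marker references and leaving out each array. Deviations of same-numbered arrays correlated at -0.026 to 0.096, so the numbers were not taken as pairs. The scripts were tested on simulated data. The sample sources number a mouse for each array, a reading that the sex-linked RNA puts in question for the deficient group. The SEs and p-values measure the spread among arrays, and whether this is the spread among mice cannot be told. Precision is also limited by the 3 arrays per group. RMA compresses changes of dim probe sets. No batch or scan date was given in the sources used here.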

Additional observations from a re-analysis of the deposited data

Results flagged for a closer look

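The 3 probe sets of class II genes that follow entered no comparison because the platform annotation gives each of them a pair of symbols. On 1418638_at and 1449580_s_at, which carry the symbols H2-DMb2 and H2-DMb1, the log2 fold changes (deficient minus control) were 2.52 (limma adjusted p = 8.09e-07) and 2.32 (limma adjusted p = 1.29e-07). On 1422201_at, which carries Gm20506 and H2-Ob, it was 0.40 (limma adjusted p = 0.0012). On each of them all deficient arrays were above all control arrays. Which gene of a pair gave the signal cannot be told apart.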

How the results depend on the processing

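The call and direction of all 9 member genes held in 143 comparisons over 16 alternative settings, though H2-Aa gave no value without probe sets of shared sequence. Member probe sets kept theirs in 268 of 276 comparisons, and the other 8 concerned the Ciita probe set 1447075_at, which lost its call under the methods' t-test (adjusted p = 0.19), under eBayes with trend and robust settings (0.065) and without any of 5 arrays, while its adjusted p over all alternatives ran from 0.020 to 0.19. With the replicate block, 18 member probe sets still rose, 1 fell and 17283 of all probe sets passed. Of the other named genes, 2675 of 2847 comparisons were unchanged. Kat2b was at -0.21 (adjusted p = 0.078) without probe sets of shared sequence, and Vps52, at 0.043 by its brightest probe set, was at -0.81 by the mean of its probe sets, which had -1.66 and 0.043. Nfyb, Nfyc and Marchf1 lost their calls under several settings, the replicate block included. The cause was not tested. Probe sets ending in _x_at or _s_at can match several genes, and class II haplotypes differ in sequence.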
